A study of Mus musculus with 12 samples.

Results

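The response to the ligand of the RheoSwitch system was measured in parental NIH 3T3 cells, which by their labels carry no part of the switch. These are mouse fibroblasts of an established line from the American Type Culture Collection. They received either 200 nM RSL-1 (RSL), a diacylhydrazine, or a matching volume of its solvent DMSO, and RNA was taken at 24 h. There were 3 Affymetrix Mm430_2.0 arrays per treatment, labelled as biological replicates, so the comparison rests on 6 of the 12 arrays in the series and was drawn as RSL minus DMSO on the log2 scale over all 16475 probe sets that are not controls. The other 6 arrays come from 3T3-ind-IER2 #11 (called clone 11 in the labels), a single clone of the same line with mouse Ier2 under the switch, which had the same treatments. They enter here to share the estimate of spread and to test where the response of the parental cells differed. The labels give 1 growth protocol for all arrays, and it includes G418 and hygromycin, antibiotics that cells without a resistance gene do not survive. The sources used here do not say whether the parental cells received them, so that these cells lack the switch rests on the labels alone. The labels do not say whether replicates were separate cultures, so p-values measure only the spread between these arrays.

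RheoSwitch is a gene switch built on the insect ecdysone receptor. The ligand binds a modified ecdysone receptor, which pairs with a retinoid X receptor (RXR) partner and then activates a promoter placed in front of the gene of interest. Mammals lack an ecdysone receptor, and ligands of this class are used because they are thought to do little in mammalian cells without the switch. The comparison in parental cells asks which genes differ under the ligand in cells labelled as having neither the receptor nor the Ier2 construct. Fibroblasts answer serum, stretch and many other stimuli with immediate-early genes, which are transcribed within minutes from existing factors and usually return to their starting level within hours.

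The arrays resembled each other closely. Array medians lay between 7.04 and 7.05. Arrays of the same treatment correlated at 0.9981 to 0.9990 and arrays of different treatments at 0.9978 to 0.9988, and no pair was counted as 1. Such correlations mostly reflect differences between genes, so they cannot show whether an array deviated. The SD over probe sets was 1.473 to 1.509 on the DMSO arrays and 1.468 to 1.483 on the RSL arrays. By their labels the parental cells hold no target gene that could check which arrays received RSL. In the clone, Ier2 itself was lower in the arrays labelled RSL (log2 fold change -0.47, adjusted p = 4.64e-05 from limma), although the switch is built to raise it. Where the probes of Ier2 lie relative to the construct is not known here, and whether the clone's treatment labels are turned cannot be told here. Directions in the clone are therefore given for arrays labelled RSL, and comparisons with the clone also with its labels turned, an alternative chosen after these values were seen. The 17 fibroblast markers had a mean level of 9.90 to 9.93 on the DMSO arrays and 9.83 to 9.90 on the RSL arrays. The macrophage, epithelium and endothelium markers lay far lower, at 6.52 to 6.56, 6.21 to 6.29 and 6.06 to 6.13, with 6 of 10, 4 of 8 and 5 of 8 markers below the first quartile of the arrays.

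The response was small. At an adjusted p under 0.05 in limma, 5 of 16475 probe sets were called (0.0303%), 4 of them higher with RSL (0.0243%) and 1 lower (0.00607%). Those that rose were Ccn1, Zfand2b, Mmp3 and Klf10, and the gene that fell was Hnrnph3. Log2 fold changes over all probe sets ran from -0.43 to 0.78 with a median of 0.01, and only 2 probe sets, those of Egr1 and Ccn1, changed by 1.5-fold or more. The median standard error was 0.04. At an unadjusted p under 0.05 there were 1599 probe sets (9.71%), 792 higher (4.81%) and 807 lower (4.9%).

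**Figure D1:**
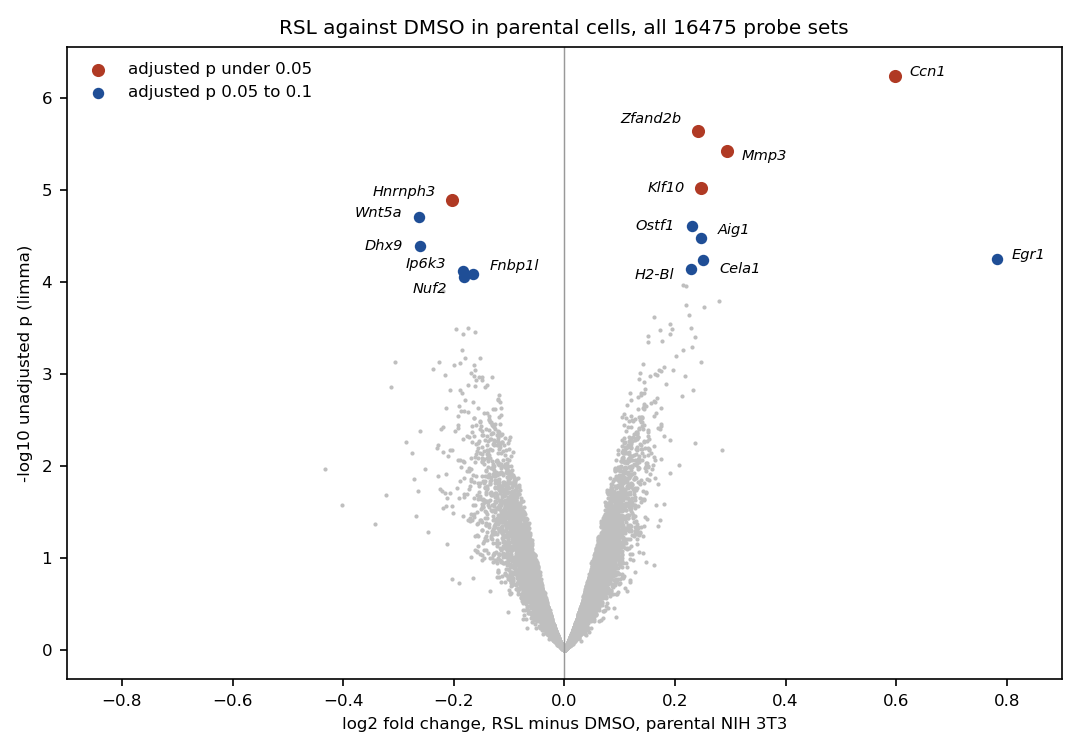
Log2 fold change, RSL minus DMSO, in parental NIH 3T3 cells (x axis) against -log10 of the unadjusted p from limma (y axis) for 16475 probe sets, with red points at an adjusted p under 0.05 and blue points between 0.05 and 0.1. Most points lie within 0.2 of 0, Ccn1 (0.60) has the smallest p, and Egr1 (0.78) has the largest change but a larger error.

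Ccn1 (named Cyr61 in the array annotation) encodes a secreted matrix protein that binds integrins and is a well-known target of the YAP/TEAD and SRF pathways. It read 9.12, 9.28 and 9.27 on the DMSO arrays and 9.99, 9.76 and 9.70 on the RSL arrays. Every RSL array lay above every DMSO array, with RSL replicate 1 the highest. The log2 fold change of 0.60 (standard error 0.08), a ratio of 1.51, had an adjusted p of 0.00944 in limma. Of the 5 calls, only that of Ccn1 remained when any 1 of the 12 arrays was left out (adjusted p from 0.00284 to 0.0464). Its adjusted p was 0.0719 in limma with a replicate block, and 0.63 by Benjamini-Hochberg in the methods' one-way analysis. Neither fit kept any of the 5 calls.

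Mmp3 encodes stromelysin-1, a secreted metalloproteinase that degrades matrix proteins. It read 9.00, 9.16 and 9.12 under DMSO and 9.41, 9.36 and 9.40 under RSL. The RSL arrays were close together and all above the DMSO arrays. Its log2 fold change was 0.29 (standard error 0.04, adjusted p = 0.0209 from limma), and without DMSO replicate 3 or any 1 RSL array the call ended, with adjusted p reaching 0.116.

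The stretches just before the start sites of Ccn1 and Mmp3 are shown because these are the genes with the largest changes among the called ones. They come from the RefSeq promoter table for GRCm38.p6, which held 4 of the 5 called genes. The table gives Ccn1 at chr3:145649986-145650235 on the minus strand and Mmp3 at chr9:7445572-7445821 on the plus strand, 250 bases before each start, written 5′ to 3′ along the gene. Capitals mark matches to the motifs searched.
Ccn1: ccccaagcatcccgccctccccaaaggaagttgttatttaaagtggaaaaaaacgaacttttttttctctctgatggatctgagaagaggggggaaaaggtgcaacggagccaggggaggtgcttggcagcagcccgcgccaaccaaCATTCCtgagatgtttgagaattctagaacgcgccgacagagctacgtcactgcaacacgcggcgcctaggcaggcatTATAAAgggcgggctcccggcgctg
Mmp3: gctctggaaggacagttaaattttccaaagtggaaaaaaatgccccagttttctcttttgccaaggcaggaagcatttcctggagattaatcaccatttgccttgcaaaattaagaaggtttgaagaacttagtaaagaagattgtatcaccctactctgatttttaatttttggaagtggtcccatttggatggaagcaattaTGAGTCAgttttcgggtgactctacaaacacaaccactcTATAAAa
On both strands 6 motifs were searched, namely TATAAA, the TEAD core GGAATG, the AP-1 site TGANTCA, the nuclear receptor site AGGTCA, the ecdysone response element (an inverted repeat of AGGTCA with 1 base between, so that each match also matches AGGTCA) and the CArG box of SRF. Ccn1 held GGAATG on the minus strand, 103 bases before the start, and TATAAA 25 bases before it. Mmp3 held TGANTCA 46 bases and TATAAA 7 bases before the start. Of 32851 promoters of this length, 12.6% held GGAATG, 12.4% TATAAA, 6.75% TGANTCA, 14% AGGTCA, 1.47% the CArG box and 0.00609% the inverted repeat. The windows of Zfand2b (both start sites) and Hnrnph3 held none of these letters. None of the 4 genes' windows held AGGTCA, the inverted repeat or the CArG box.

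Zfand2b encodes a zinc finger protein that works with the proteasome at the endoplasmic reticulum. Its values were 7.75, 7.81 and 7.83 with DMSO and 8.06, 8.01 and 8.04 with RSL. The groups did not overlap and the RSL arrays differed little among themselves. The log2 fold change was 0.24 (standard error 0.03, adjusted p = 0.0188 from limma). The call ended without DMSO replicate 2 or any 1 RSL array (adjusted p up to 0.116).

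Klf10 is an early response gene for a zinc finger repressor that TGF-beta induces. It read 9.13, 9.17 and 9.19 under DMSO and 9.34, 9.40 and 9.50 under RSL. All RSL arrays were higher, with RSL replicate 3 the highest. With a log2 fold change of 0.25 (standard error 0.04) and an adjusted p of 0.0392 in limma, it kept its call in 3 of the 12 fits with 1 array left out, where adjusted p ranged from 0.0339 to 0.165.

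Hnrnph3 encodes an RNA-binding protein of the hnRNP H family, which takes part in splicing. It read 8.64, 8.73 and 8.65 under DMSO and 8.49, 8.47 and 8.44 under RSL. All RSL arrays lay below all DMSO arrays. The log2 fold change was -0.20 (standard error 0.03, adjusted p = 0.0421 from limma), and the call likewise remained in 3 of 12 fits (adjusted p from 0.0408 to 0.271). In a fit to the 6 parental arrays alone only Ccn1 of the 5 kept its call (adjusted p = 0.0097), while adjusted p was 0.0684 for Mmp3, 0.0686 for Zfand2b, 0.114 for Klf10 and 0.153 for Hnrnph3, all from limma. For each of the 5 genes the two-sided exact permutation test of 3 against 3 arrays gave p = 0.1, the smallest it allows.

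**Figure D2:**
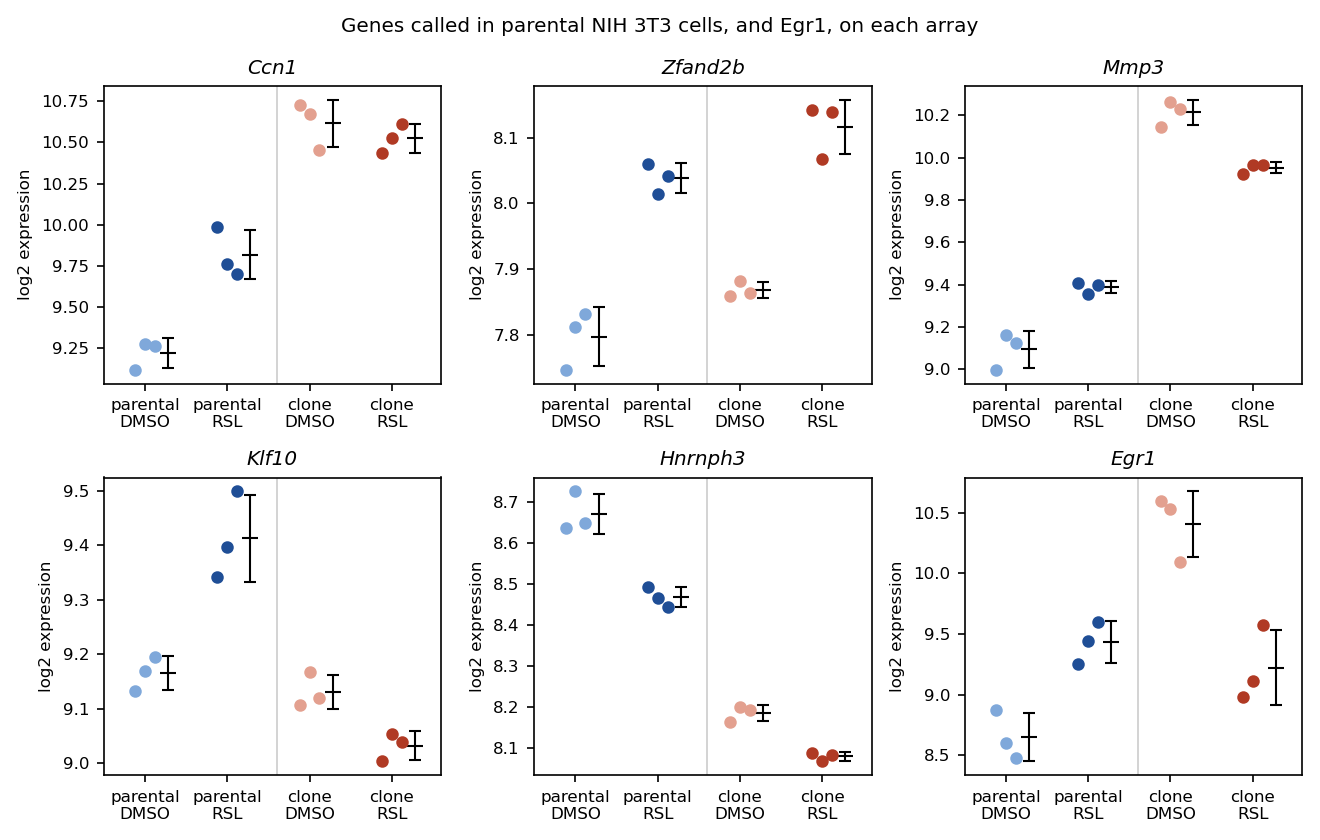
Log2 expression (y axis, scale differs between panels) of the 5 called genes and Egr1 on each of 12 arrays as points, and group means with their SD (n = 3) in black. In parental cells the RSL arrays lie above the DMSO arrays for Ccn1, Zfand2b, Mmp3, Klf10 and Egr1 and below for Hnrnph3, while in the clone the arrays labelled RSL lie above for Zfand2b only.

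Egr1, a zinc finger transcription factor and a classical immediate-early gene, had the largest change of all but missed the threshold. It read 8.87, 8.60 and 8.47 under DMSO and 9.25, 9.45 and 9.60 under RSL. The groups did not overlap, but the arrays of each treatment were spread widely. The log2 fold change was 0.78 (standard error 0.14, a ratio of 1.72) with an adjusted p of 0.087 in limma. In a fit to the 6 parental arrays alone it passed (adjusted p = 0.0106), as it did with array weights (adjusted p = 0.00888) and without clone RSL replicate 3 (adjusted p = 0.0202). In the other fits it did not reach an adjusted p under 0.05, with adjusted p of 0.369 and 0.393 without DMSO replicate 2 or 3, 0.202 with a replicate block and 0.63 in the methods' one-way analysis, the highest.

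Between an adjusted p of 0.05 and 0.1 there were 5 more genes higher and 5 lower (in all, 0.0546% higher and 0.0364% lower at under 0.1). Besides Egr1 the higher ones were Ostf1, an SH3 adaptor protein, at 0.23, Aig1, a hydrolase of fatty acid esters, at 0.25, Cela1, an elastase, at 0.25, and H2-Bl, a histocompatibility gene, at 0.23. The gene nearest to the threshold was Wnt5a, a ligand of non-canonical Wnt signaling. It read 8.93, 8.98 and 8.91 under DMSO and 8.64, 8.68 and 8.71 under RSL, with no overlap (log2 fold change -0.26, adjusted p = 0.0536 in limma). The others below 0 were Dhx9, an RNA helicase, at -0.26, Ip6k3, an inositol phosphate kinase, at -0.18, Fnbp1l, which promotes actin assembly at membranes, at -0.16, and Nuf2, a kinetochore subunit, at -0.18. None of these 10 genes passed.

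Further down by p, the values of genes that did not pass were as follows. Errfi1, a feedback inhibitor of the EGF receptor, stood at 0.22, Igfbp7, a secreted IGF-binding protein, at 0.23, Akr1c18, which inactivates progesterone, at 0.25, Trpm4, a cation channel, at 0.22, Ms4a6b at 0.28 and U90926 at 0.22. On the other side, Clu, an extracellular chaperone, stood at -0.22, Terf1, a telomere-binding protein, at -0.20, Ranbp2 of the nuclear pore at -0.18, Edil3, an integrin ligand, at -0.17, Ints3 at -0.16 and Ehbp1 at -0.15. Agtr2, the type 2 angiotensin II receptor, and Efemp1, the matrix protein fibulin-3, were both at -0.31. Several of the largest changes had large errors. Hspa8, the constitutive Hsc70 chaperone, read 13.37, 13.46 and 14.27 under DMSO and 13.22, 13.26 and 13.32 under RSL. Only DMSO replicate 3 stood far above the rest, and without it the log2 fold change of -0.43 was -0.15. Adm, the vessel-dilating peptide adrenomedullin, was at 0.28 with overlapping groups, since only RSL replicate 1, at 9.29, stood clearly above the others. Acbd5 and Gm12669 were at -0.32 and -0.34, with adjusted p of 0.44 and 0.499 in limma.

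Among immediate-early genes, 34 of 35 were measured, and 2 were called, both higher (Ccn1 and Klf10, where 0.0243% of all probe sets were called higher). At an unadjusted p under 0.05 there were 13 higher and 1 lower, against 4.81% and 4.9% of all probe sets, and in 13 every RSL array lay above every DMSO array, with none the other way (over all probe sets, 7.12% lay wholly above and 6.15% wholly below). The log2 fold change was above 0 in 30 of 34, against 55.6% of all probe sets, and the list's median was 0.07 against 0.01. With each member replaced by the median of all probe sets in its own expression quartile, the list's median was -0.01. The list's median stayed between 0.05 and 0.08 without any 1 parental array. Since the lists were written with earlier results of these data known, these contrasts with all probe sets are a description only.

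Ier2, the immediate-early gene that the clone was built to express, is by the labels present in parental cells only as the cell's own gene. It read 8.60, 8.61 and 8.53 under DMSO (8.58 ± 0.05, SD, n = 3) and 8.82, 8.74 and 8.67 under RSL (8.75 ± 0.07, SD, n = 3). All RSL arrays were above all DMSO arrays. The change was 0.17 on the log2 scale, with a standard error of 0.05, and missed the threshold in limma (adjusted p = 0.366), and the two-sided exact permutation test gave p = 0.1, the smallest possible.

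Ccn2, the sister gene of Ccn1, read 10.99, 11.15 and 11.13 under DMSO and 11.44, 11.33 and 11.20 under RSL. The groups did not overlap, though RSL replicate 3 came within 0.1 of the DMSO arrays (log2 fold change 0.24, adjusted p = 0.193 in limma). Nr4a1, an orphan nuclear receptor that can pair with RXR, read 9.18, 9.10 and 9.11 under DMSO and 9.41, 9.26 and 9.35 under RSL, again without overlap (0.21, adjusted p = 0.326 in limma). Of the other early transcription factors, Egr2 was at 0.19, Nfkbiz at 0.10, Fosb at 0.08, Myc at 0.06, Fos at 0.04, Atf3 at 0.04, Srf at 0.05, Junb at 0.02 and Jun at -0.08. The dual-specificity phosphatases, which switch off MAP kinases, were at 0.11 for Dusp5, 0.07 for Dusp1 and -0.02 for Dusp6. The Ier2 relatives Ier5 and Ier5l were at 0.11 and 0.13. None of the genes in this paragraph passed.

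**Figure D3:**
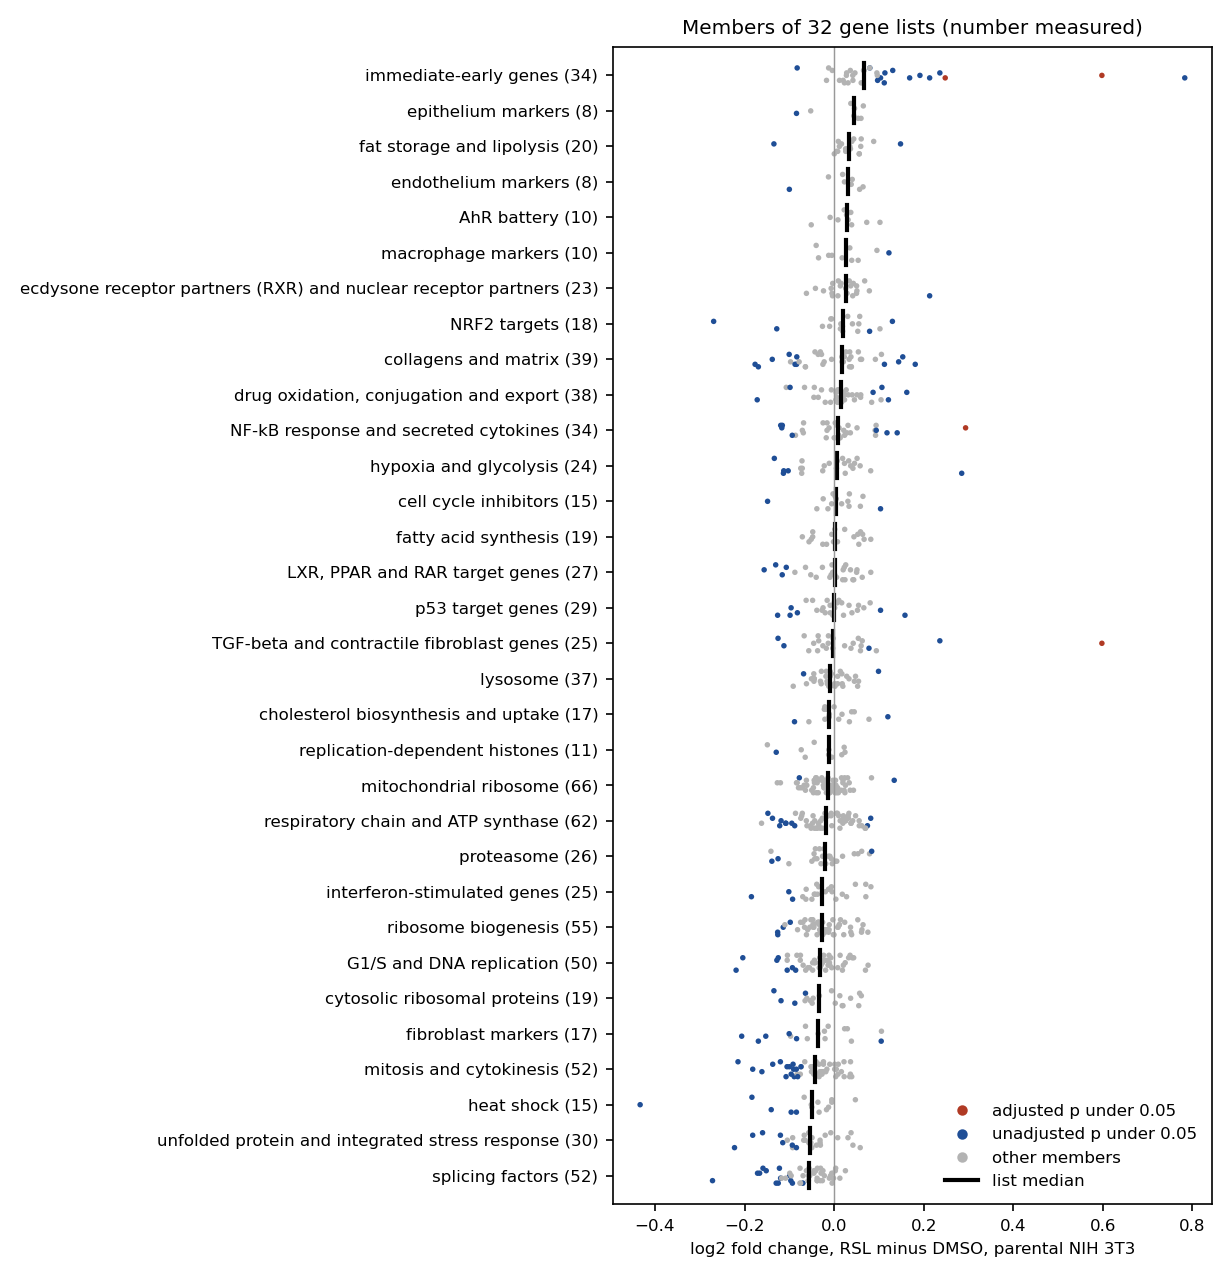
Log2 fold change, RSL minus DMSO, in parental NIH 3T3 cells for each measured member (points) of 32 gene lists, ordered by the list median (black line). Red points passed an adjusted p under 0.05, blue points an unadjusted p under 0.05, and grey points neither. The immediate-early list has the highest median (0.07), the splicing list the lowest (-0.06), and nearly all other members lie within 0.2 of 0.

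The receptors that a diacylhydrazine or its switch could meet were looked at next. Rxra, Rxrb and Rxrg, the mammalian partners of nuclear receptors, had log2 fold changes of 0.03, 0.01 and 0.04. Rxra, the first of them, read 7.92, 7.88 and 7.89 under DMSO and 7.94, 7.90 and 7.93 under RSL, so its groups overlapped. The xenobiotic receptors Nr1i2 (PXR) and Nr1i3 (CAR) were at 0.02 and 0.07, the bile acid receptor Nr1h4 at 0.05 and the oxysterol receptor Nr1h3 at -0.01. All of these, and Rxrg, were among the 40% of probe sets with the lowest mean level. Of 23 measured receptors and coactivators none was called, and Nr4a1 alone reached an unadjusted p under 0.05. Target genes of the lipid-sensing receptors LXR, PPAR and RAR gave no call among 27. At an unadjusted p under 0.05, 4 were lower and 0 higher, against 4.9% and 4.81% of all probe sets. The 4 were Angptl4, which inhibits lipoprotein lipase, at -0.13, Cpt1a, the gate of mitochondrial fat oxidation, at -0.12, Dhrs3, a retinal reductase, at -0.11, and Acot1 at -0.16.

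Genes of drug handling were near 0 in most cases. The aryl hydrocarbon receptor battery had no call among 10 and none at an unadjusted p under 0.05. Cyp1a1, its most inducible member, read 6.15, 5.99 and 6.11 under DMSO and 6.14, 6.05 and 6.13 under RSL. These values overlapped, and all lay under the arrays' first quartiles (6.23 to 6.30). Among 38 genes of drug oxidation, conjugation and export none was called, 4 were higher and 2 lower at an unadjusted p under 0.05 (4.81% and 4.9% over all probe sets), and the median was 0.02. Cyp3a11 and Cyp2b10, the usual targets of PXR and CAR, were at 0.02 each. Both were among the 40% of probe sets with the lowest mean level, so little can be read from these values. Mgst1, a microsomal glutathione transferase, was at 0.16, Sult1a1, a sulfotransferase, at 0.12, the exporter Abcb1b at -0.17 and the epoxide hydrolase Ephx1 at -0.10. Sult1a1 too was among the 40% with the lowest mean level. Of 18 NRF2 targets none was called, with Gclm of glutathione synthesis at 0.13 and the peroxiredoxin Prdx1 at -0.27.

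Changes depended slightly on the level of expression. In the 2 lower quartiles of mean expression the median log2 fold change was 0.02 in each, and in the upper ones it was 0.00 and -0.01. At an unadjusted p under 0.05, 253 probe sets were higher and 48 lower in the lowest quartile, against 135 and 414 in the highest, where 10.1% were thus lower and 39.5% of log2 fold changes were above 0. In the clone the 4 medians lay within 0.01 of 0. After cyclic loess normalization, chosen after these values were seen, all 4 were 0.00 in parental cells. Of the lists described next, the highest quartile held 45 of 52 splicing genes, 22 of 30 of the unfolded protein response, 14 of 15 heat shock genes, 44 of 52 of mitosis and 39 of 50 of G1/S. The part of this tilt in their medians was not tested beyond that normalization.

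Genes of splicing had the lowest median, -0.06 (-0.03 after cyclic loess). Of 52 measured, none was called and 4 were above 0 (55.6% of all probe sets and 39.5% in the highest quartile). At an unadjusted p under 0.05, 13 were lower against 0 higher (lower were 4.9% of all probe sets and 10.1% in the highest quartile). Luc7l2, a U1 snRNP protein, was at -0.16, the SR protein Srsf3 at -0.17, the helicase Ddx17 at -0.12, Srsf1 at -0.13 and Hnrnph1 at -0.27. Srsf3 read 10.13, 10.24 and 10.23 under DMSO and 10.00, 10.04 and 10.07 under RSL. These RSL arrays were all lower. Hnrnph3, the called gene, was not written into this list.

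Chaperones and folding genes were also below the middle. The unfolded protein and integrated stress response had a median of -0.05 (-0.04 after cyclic loess), with 5 of 30 above 0, no call, and 7 lower and 0 higher at an unadjusted p under 0.05, where 4.9% of all probe sets and 10.1% of the highest quartile were lower. Hspa5, the chaperone BiP, read 11.43, 11.50 and 11.51 under DMSO and 11.23, 11.24 and 11.30 under RSL (log2 fold change -0.22, adjusted p = 0.366 in limma). Hsp90b1, its partner Grp94, was at -0.16 and Canx, calnexin, at -0.18. The groups did not overlap for any of these 3 genes. Heat shock genes had a median of -0.05 (-0.03 after cyclic loess), with 1 of 15 above 0 and no call. At an unadjusted p under 0.05, 5 were lower and 0 higher, among them the co-chaperone Hsph1 at -0.18 and Hspa4 at -0.14. The highest quartile, where 10.1% were lower, held 14 of these 15. Beside the counts above 0 of both lists, 55.6% of all probe sets and 39.5% in the highest quartile were above 0. Without any 1 parental array the heat shock median lay between -0.07 and -0.02.

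In the cell cycle, mitosis genes had a median of -0.04 (-0.03 after cyclic loess), and 15 of 52 were lower and 0 higher at an unadjusted p under 0.05, with no call (again 4.9% lower over all probe sets and 10.1% in the highest quartile). Besides Nuf2 these included the kinetochore motor Cenpe at -0.16, Ect2, which drives cytokinesis, at -0.21, and Kif20a at -0.14. Among 50 genes for G1/S and replication of DNA, 7 were lower and 0 higher at an unadjusted p under 0.05, with no call. The highest quartile, where 10.1% of probe sets were lower (4.9% over all), held 39 of these 50. The helicase subunits Mcm6 and Mcm4 were at -0.22 and -0.20, and the list's median of -0.03 was -0.01 after cyclic loess. Among 15 cell cycle inhibitors the median was 0.00.

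Fibroblast markers had a median of -0.04, with 1 higher and 5 lower of 17 at an unadjusted p under 0.05 and none called. Over all probe sets 4.81% were higher and 4.9% lower. In the highest expression quartile, which held 12 of the 17 markers, 10.1% were lower. Vim, vimentin, was at -0.21, Col1a1 at -0.17, Pdgfrb at -0.15 and Thy1 at 0.11. In bulk RNA of an established line, a change in all cells and a change in some of them cannot be told apart. Collagens and other matrix genes had 4 higher and 7 lower of 39, against the same 4.81% and 4.9% of all probe sets. They were led by Ogn, a small matrix proteoglycan, at -0.18, Col15a1 at 0.15 and Thbs2 at 0.14. In the TGF-beta and contractile list the only call of 25 was Ccn1, beside Tgfb3 at -0.13 and the tropomyosin Tpm1 at -0.11.

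Of 34 NF-kB and cytokine genes Mmp3 was the only call, and 4 were higher and 4 lower at an unadjusted p under 0.05. Over all probe sets 4.81% were higher and 4.9% lower. The lower genes included the adhesion molecule Vcam1 at -0.12 and the gelatinase Mmp9 at -0.12. Interferon-stimulated genes had a median of -0.03, with 7 of 25 above 0 (55.6% of all probe sets). Replacing each member by the median of all probe sets in its own expression quartile gave 0.02. At an unadjusted p under 0.05, 0 were higher and 3 lower: Cxcl10, a T-cell chemokine, at -0.18, Irgm1 at -0.09 and Gbp2 at -0.10. Among 29 p53 targets 2 were higher and 4 lower, against the same shares of all probe sets, with the kinase Plk2 at 0.16. Hypoxia and glycolysis genes had Adm higher and 4 of 24 lower, such as Tpi1 at -0.11 and P4ha1 at -0.13. The highest expression quartile, where 10.1% of probe sets were lower, held 15 of these 24.

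Synthesis of cholesterol and of fatty acids showed no call, with medians of -0.01 over 17 genes and 0.00 over 19. Fat storage genes had a median of 0.03, with the lipase Pnpla2 at 0.15 and Cebpd at -0.13. The remaining lists of basic cell functions also had no call. Their medians were -0.02 for the respiratory chain (62 genes), -0.01 for the mitochondrial ribosome (66), -0.02 for the proteasome (26), -0.01 for the lysosome (37), -0.03 for ribosome biogenesis (55) and -0.01 for histones (11). Cytosolic ribosomal proteins stood at -0.03, but only 19 of 80 were measured. After cyclic loess they were at 0.00 and ribosome biogenesis at -0.01.

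The same treatment in the inducible clone gave 218 probe sets higher (1.32%) and 200 lower (1.21%) in arrays labelled RSL. The difference between the effects in the 2 cell lines was tested in the same model and passed for 109 probe sets (0.662%), with the effect higher in parental cells for 50 (0.303%) and lower for 59 (0.358%). Over all probe sets the changes in both lines correlated at 0.11, which is a description across probe sets of arrays normalized together. Of 311 probe sets at an unadjusted p under 0.05 in both lines, 204 had the same direction as labelled and 107 with the clone's labels turned, where the correlation was -0.11. With turned labels the difference passed for 214 probe sets (1.3%).

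Of the 5 called genes, Ccn1, Mmp3 and Klf10 differed between the cell lines as labelled. Ccn1 read 10.73, 10.67 and 10.46 in the clone under DMSO and 10.44, 10.52 and 10.61 in arrays labelled RSL. It was thus already higher than in any parental array, and the groups overlapped (log2 fold change -0.09). The difference of effects was -0.69 (standard error 0.11, adjusted p = 0.00488 from limma), and -0.50 with the clone's labels turned (adjusted p = 0.029). Mmp3 rose in parental cells and was lower in the clone's arrays labelled RSL (log2 fold change -0.26, adjusted p = 0.00283), and the effects differed by -0.56 (adjusted p = 0.000262, both from limma), but by -0.03 with the labels turned (adjusted p = 0.872). Klf10 was at -0.10 in the clone, where it did not pass, and the difference of -0.35 did (adjusted p = 0.00633 from limma), unless the labels were turned (-0.15, adjusted p = 0.232).

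Zfand2b was the only one of the 5 genes called in the same direction in both lines as labelled. In the clone it read 7.86, 7.88 and 7.86 under DMSO and 8.14, 8.07 and 8.14 in arrays labelled RSL, so that all RSL arrays of both lines lay above all DMSO arrays of both lines. The clone's log2 fold change of 0.25 (adjusted p = 0.000656 from limma) differed from the parental one by 0.01 (standard error 0.05, adjusted p = 0.983), and with turned labels by -0.49 (adjusted p = 0.000119). Hnrnph3 was at -0.11 in the clone, with a difference of 0.10 (standard error 0.05, adjusted p = 0.555), or 0.31 with turned labels (adjusted p = 0.00282), from limma. Of the genes between a parental adjusted p of 0.05 and 0.1, only Ostf1 and Fnbp1l had similar values in the clone. In arrays labelled RSL, Ostf1 was at 0.27 (adjusted p = 0.000962), Fnbp1l at -0.18 (adjusted p = 0.00553) and, from further down, Agtr2 at -0.30 (adjusted p = 0.0413, all from limma). For these 3 the differences were 0.04, -0.01 and 0.01, with standard errors of 0.06, 0.04 and 0.10. With turned labels they were -0.50, 0.34 and 0.60, and all 3 passed. Egr1 and Nuf2 had the opposite sign in the clone as labelled (-1.18 and 0.10). Wnt5a, Dhx9, Aig1, Cela1, H2-Bl and Ip6k3 lay between -0.04 and 0.04 in the clone under either labelling.

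Immediate-early genes were compared between the lines in the same way. Their median was 0.07 in parental cells and -0.10 in the clone, where 3 were called higher and 11 lower. The difference passed for 11 of 34, with the effect higher in parental cells for 10 (0.662% and 0.303% of all probe sets). With the clone's labels turned it passed for 8, of which 4 were higher in parental cells, and the clone's median was 0.10. Egr1 read 10.59, 10.53 and 10.09 in the clone under DMSO and 8.98, 9.12 and 9.57 in arrays labelled RSL, and was thus lower in the latter (log2 fold change -1.18, adjusted p = 0.000198), with a difference of -1.97 (standard error 0.20, adjusted p = 0.000262, both from limma). With turned labels this was 0.40 and did not pass (adjusted p = 0.418). Ier2 showed a difference of -0.64 and Dusp5 of -0.54, each with an adjusted p of 0.000262 from limma, against 0.31 and 0.32 with turned labels (adjusted p = 0.0456 and 0.00904). Dusp1 went the other way, at 0.07 in parental cells and 0.40 in the clone. Ccn2 was at 0.52 in the clone's arrays labelled RSL, and for it the difference of 0.29 (standard error 0.08) did not pass (adjusted p = 0.114 from limma).

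**Figure D4:**
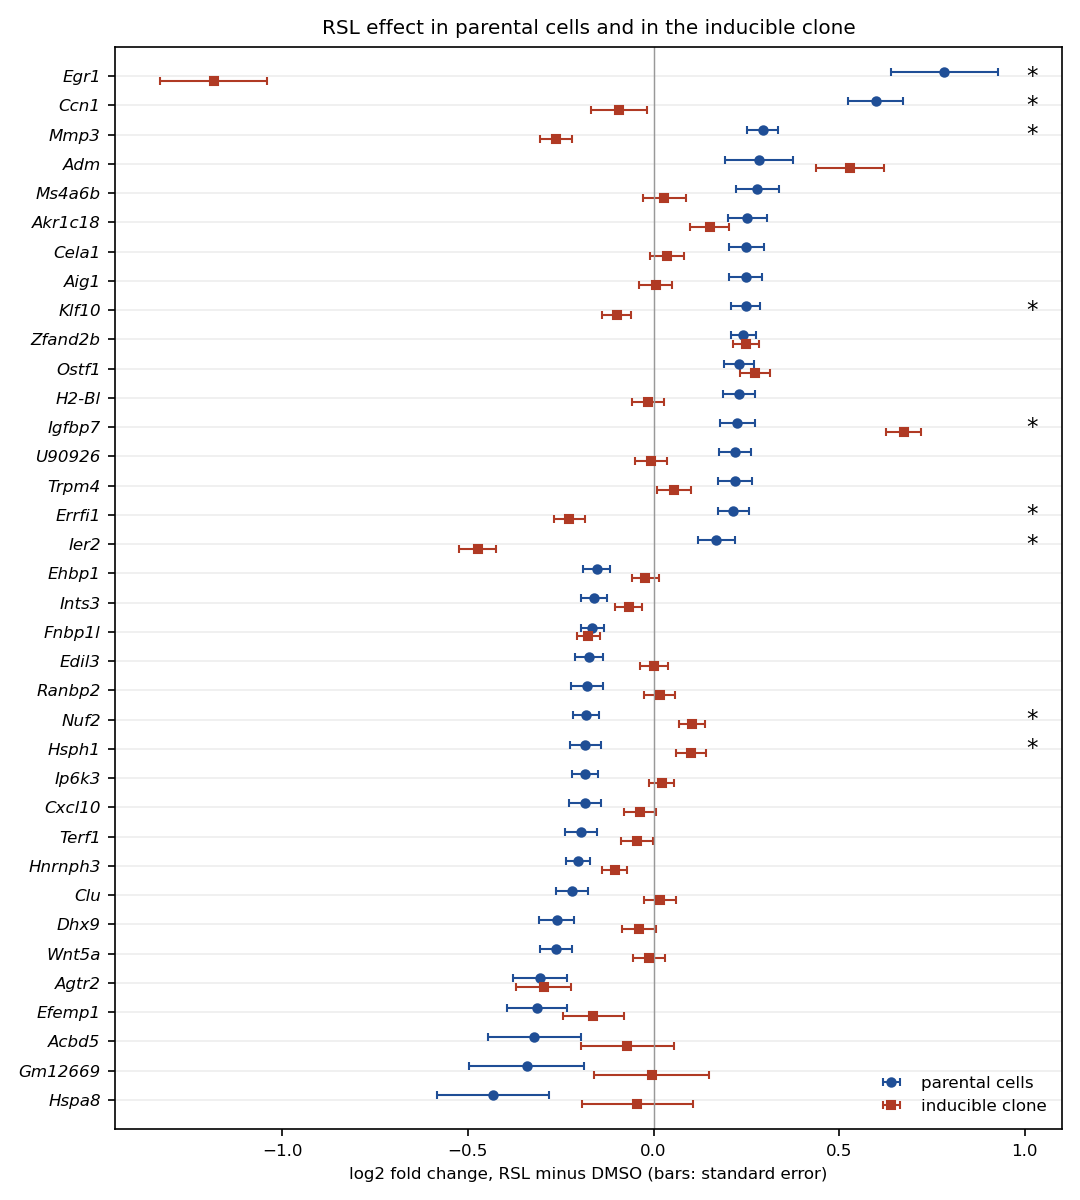
Log2 fold change, RSL minus DMSO (x axis, bars show the standard error), of 36 genes chosen by their parental p or change, in parental cells (blue circles) and in the inducible clone (red squares), with an asterisk where the difference passed an adjusted p under 0.05. Zfand2b, Ostf1, Fnbp1l and Agtr2 lie at similar places in both lines as labelled, and Egr1, Ier2, Mmp3 and Errfi1 on opposite sides of 0.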

How the data were processed

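The authors deposited 1 table of log2 values, made from Mm430_2.0 arrays by quantile normalization after RMA background correction, with probes grouped by Entrez gene through a Custom CDF (version 10). The log base was read from the values, and the sources used here do not give the summary of probes. Of 16539 probe sets 64 controls were left out, and 15780 of the other 16475 have 1 gene symbol. The table has 0 columns of other samples. For RNA the labels name Trizol and the methods RNAPure peqGOLD.

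All 12 arrays, without a filter, entered a linear model with 1 mean per group in limma 3.58.1 under R 4.3.3, which leaves 8 residual degrees of freedom. Contrasts were RSL minus DMSO in each line and the difference of these effects, with Benjamini-Hochberg adjustment over all probe sets and calls at an adjusted p under 0.05. Adjusted p-values are limma's, except those of the methods' one-way analysis. The scripts were tested on simulated data. Arrays give no counts, so their number limits the precision.

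Members and the 32 gene lists (1057 genes, 879 measured) were chosen with earlier results of these data known, and lists are described by counts and medians only. Named were Ier2, called genes, the 15 smallest p per direction, the 5 largest changes per direction, 4 members per list by smallest p, and receptors or drug response genes described by role. Other immediate-early genes were named after their values were seen. Motifs were counted in RefSeq promoters. Tried as well were array weights, a replicate block, an intensity trend, a filter that left out the lowest 40% of levels, median subtraction, repeated quantile normalization, the 6 arrays alone, the methods' one-way analysis, other thresholds, leaving out each parental array and, chosen after seeing the data, cyclic loess, leaving out each clone array and turning the clone's treatment labels.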

Additional observations from a re-analysis of the deposited data

Results flagged for a closer look

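For 25 genes named here, the RSL effect in the clone minus that in parental cells passed the limma test of the difference. Over all probe sets 0.662% passed. Genes were named here largely by their parental p or change, which enters the difference, so the count of 25 is a description only. The values below are these differences on the log2 scale. Of the immediate-early genes and their feedback regulators, Egr1 was at -1.97, Ccn1 at -0.69, Ier2 at -0.64, Dusp5 at -0.54, Egr2 at -0.53, Errfi1 at -0.44, Klf10 at -0.35, Fosl1 at -0.33, Ier5 at -0.33, Zfp36 at -0.28, Jun at -0.27 and Dusp1 at 0.33. Of secreted and matrix genes, Mmp3 was at -0.56, Ogn at 0.70, Igfbp7 at 0.45 and Tgfb3 at 0.24. Of inflammatory genes, Gbp2 was at 0.36, Irgm1 at 0.29 and Vcam1 at 0.26. The others were Tpm1 at 0.29, Nuf2 at 0.29, Hsph1 at 0.28 and the enzymes Dhrs3 at 0.31, Ephx1 at 0.28 and Gstm1 at 0.23.

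The difference passed without any 1 of the 12 arrays for 16 of these genes. It was lost in some of the 12 fits for the others, namely in 10 for Gstm1 and Zfp36, in 9 for Dusp1, Hsph1 and Tgfb3, in 6 for Jun, in 5 for Ephx1 and in 1 for Dhrs3 and Ier5. All of these differences rest on the clone's treatment labels, and with those turned 7 of the 25 passed (Ier2, Ccn1, Igfbp7, Ogn, Jun, Dusp1 and Dusp5), of which only Ccn1 kept the sign given above. Gstm1 also missed the threshold after cyclic loess (adjusted p = 0.0816 from limma). With a replicate block, Ier5, Ephx1, Dusp1, Hsph1, Zfp36, Jun, Gstm1 and Tgfb3 missed it. Their adjusted p there ran from 0.0563 for Ier5 to 0.105 for Tgfb3 in limma.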

How the results depend on the processing

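Of the 21 alternatives for the parental effect, 10 can change a log2 fold change. In these, none of the 36 genes with the smallest p or the largest changes turned its direction. Except for Ier2, these genes were chosen for their values on the same arrays. Where the groups do not overlap, leaving out 1 array cannot turn a direction, so this says little about stability. Over all 396 genes followed, 231 of 8239 results had the other sign, none of them called in either fit. The other 11 alternatives change only the error, the threshold or the genes tested, and the level filter left out 3 of the 36. The count of called probe sets did move. In parental cells the main count of 5 became 8 with the level filter, 10 with the intensity trend, 106 with array weights (which gave DMSO replicate 3 a weight of 2.75 and DMSO replicate 1 of 0.449), 8 with repeated quantile normalization, 9 with cyclic loess, 15 at an adjusted p under 0.1, 1599 at an unadjusted p under 0.05, and 2 in the 6 parental arrays alone, 1 of which was among the 5. The methods' one-way analysis called 1226 at a nominal p under 0.05 and 0 once adjusted by Benjamini-Hochberg. For the difference between the lines, the main count of 109 became 375 with array weights, 182 at an adjusted p under 0.1, 1494 at an unadjusted p under 0.05 and 214 with the clone's treatment labels turned, of which 48 were among the 109. Leaving out 1 array gave 1 to 12 in parental cells and 56 to 144 for the difference. The parental count was 1 without RSL replicate 2 or 3, 2 without RSL replicate 1, DMSO replicate 2 or DMSO replicate 3, 3 without clone DMSO replicate 1 or 3 or clone RSL replicate 1, 8 without clone RSL replicate 2 and 12 without clone RSL replicate 3. The difference count was 60 and 70 without parental DMSO replicate 2 and 3, 71 without parental RSL replicate 1, 56 without clone DMSO replicate 1 or 2, 72 without clone RSL replicate 1 and 58 without clone RSL replicate 2. With a replicate block in limma the counts were 0 and 59, and 1665 parental probe sets had an unadjusted p under 0.05. Deviations of same-numbered RSL and DMSO arrays from their group means correlated at -0.10, -0.27 and 0.14. Taken from means of 3 arrays, these values cannot decide whether the replicate numbers pair the arrays. The causes of these moves were not tested. With 3 arrays per group, a change of 0.2 is near the smallest that was called.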
